A study of Mus musculus with 2 samples.

Results

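Mir31 and Mir3547 are 2 of the 2202 microRNA genes counted in mouse hippocampus. They were chosen by their sense counts, which for each were far lower in replicate 2 than in replicate 1. That contrast between the libraries is therefore given below as a description, with no test. The study holds 2 small-RNA libraries, biological replicates 2 and 1 of a single control group of wild-type female mice of the strain labelled B6NCrl. The labels give no age, name no layer for a tissue called layer of hippocampus, and list a shared donor record with separate biosample records. Whether the RNA came from separate animals is therefore not given, and the spread between the libraries may be technical. Library, biosample and the adapter-trimming document named for each library differ together and cannot be told apart.

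A microRNA gene is transcribed into a hairpin from which enzymes cut a short mature RNA. The seed near its 5′ end pairs with target messenger RNAs and lowers their output. Mir31 is a conserved gene best known in epithelial cells, skin and hair follicles, and in human tumours it can be lost together with its chromosomal neighbour CDKN2A. Mir3547 lies in Baiap3, whose protein is a relative of the Munc13 family that acts in dense-core vesicle trafficking and is known from hypothalamus and amygdala. Most hairpins are cut out of a longer transcript by Drosha. A mirtron is instead released by splicing, as a short intron that folds into a hairpin and goes straight to Dicer.

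The mature sequences are shown because they are the RNAs these hairpins are annotated to yield, with the seed (bases 2 to 8) in capitals. They are RefSeq sequences on build GRCm38.p6.
miR-31-5p: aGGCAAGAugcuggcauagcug
miR-31-3p: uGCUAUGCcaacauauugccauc
miR-3547-5p: gUGGGAAGagggguggggcccggga
miR-3547-3p: uGAGCACCaccccucucucag
The 4 seeds differ from each other. No other RefSeq mouse mature sequence has either seed of Mir31 or the seed of miR-3547-3p. The seed of miR-3547-5p also occurs in 3 others, from Mir6368, Mir6404 and Mir6405, each with 0 counts in both libraries. The counts are per gene, so the 5p and 3p arms of a hairpin were not measured apart.

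Both genes sit on the minus strand, in different settings. Mir31 (ENSMUSG00000065408.1) is at chr4:88910557-88910662 (mm10), inside exon 3 of 3 of the long non-coding RNA AL805899.1. Mir3547 (ENSMUSG00000093202.2) is at chr17:25245551-25245638 (mm10), inside Baiap3. Its hairpin fills an intron exactly: the intron runs from 25245551 to 25245638 in each of 5 annotated Baiap3 transcripts, between exons 25 and 26 in those with 34 exons. In the hairpins below the mature arms are in capitals.
Mir31: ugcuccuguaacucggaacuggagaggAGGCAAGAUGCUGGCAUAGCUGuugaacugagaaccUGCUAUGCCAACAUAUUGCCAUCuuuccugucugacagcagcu
Mir3547: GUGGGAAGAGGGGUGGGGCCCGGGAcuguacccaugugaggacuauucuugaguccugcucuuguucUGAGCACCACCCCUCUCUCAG
The arms of Mir31 lie inside the hairpin, at bases 28 to 49 and 64 to 86 of 106. The arms of Mir3547 reach both ends, at bases 1 to 25 and 68 to 88 of 88. This hairpin thus begins with GU and ends with AG, the bases that mark the ends of most introns. The predicted fold paired 17 bases of one Mir31 arm with the other arm at -48.7 kcal/mol for the hairpin, and 18 bases of the Mir3547 arms at -41.5 kcal/mol.

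Neither hairpin shares a long stretch with another annotated one. The longest stretch that each shares with any other M21 hairpin was 12 bases, below the length of a mature microRNA. Copies elsewhere in the genome were not searched. On the opposite strand each gene had 0 counts in both libraries. For Mir31 that allows an antisense count of up to 0.521% of the sense count in replicate 2 and 0.0454% in replicate 1, and for Mir3547 up to 2.91% and 0.0743%. With strand ignored the counts of both genes were the same as the sense counts, since these are the same reads.

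The libraries were deep. Sense counts on microRNA genes totalled 5901107 in replicate 2 and 6713867 in replicate 1, which was 41.3% and 42.5% of all reads. A larger class, 45.9% and 43.9% of reads, mapped to several places and was given to no gene. Genes with near-identical copies may therefore be counted in part only. In the neuron list, 11 of 15 genes averaged at least 10 counts, and the list summed to 34051 CPM (a gene's sense counts per 1000000 sense counts over all microRNA genes) in replicate 2 and 32777 CPM in replicate 1. Among its members Mir132, a neuronal microRNA induced by activity, had 12540 and 15073 CPM. Ratios here use the TMM scaling described below. Of the 11 genes none was at least 2-fold lower in replicate 2, against 7.08% of the 466 genes with that average. At least 2-fold higher were 3, against 6.44%, or 2 with library totals as the scale, against 4.51%. The 3 are Mir128-1 with 8772 CPM in replicate 2 and 3723 CPM in replicate 1, Mir128-2 and Mir9-3. Mir128-2 had 1882 and 953 CPM, and Mir9-3 58.8 and 15.5 CPM. Mir128-1 and Mir128-2 share 23 bases with another hairpin, and Mir9-3 shares 26. Log2 ratios were below 0 for 3 of the 11, against 49.4%, the lowest being -0.68 for Mir138-1 with 2024 and 3716 CPM. The copies of Mir124a, the best known neuronal microRNA, were at 0 to 8 counts each, and they share 32 bases with each other, so reads within that part map to several places.

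Mir31 had 576 counts in replicate 2, against 6605 counts in replicate 1. These are 97.6 CPM in replicate 2 (exact 95% Poisson interval 89.8 to 106) and 984 CPM in replicate 1 (interval 960 to 1008). The gene was low in replicate 2 and high in replicate 1, the contrast it was chosen for. The gap between its counting intervals is therefore no separate finding. It ranked 187 of 2202 genes in replicate 2 and 90 in replicate 1. Its mean level was 541 ± 627 CPM (SD, n = 2), an SD larger than the mean. The log2 ratio of replicate 2 over replicate 1 was -3.13 (exact counting interval -3.26 to -3.01) after scaling by the trimmed mean of M values (TMM), which makes Mir31 8.78-fold lower in replicate 2.

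Mir3547 had 103 counts in replicate 2, against 4036 counts in replicate 1. These are 17.5 CPM in replicate 2 (exact 95% Poisson interval 14.2 to 21.2) and 601 CPM in replicate 1 (interval 583 to 620). It too was low in replicate 2 and high in replicate 1, and it too was chosen for this gap. Its rank was 269 in replicate 2 and 117 in replicate 1, and its mean level was 309 ± 413 CPM (SD, n = 2). The log2 ratio was -4.90 (exact counting interval -5.20 to -4.63), 29.9-fold lower in replicate 2.

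**Figure D1:**
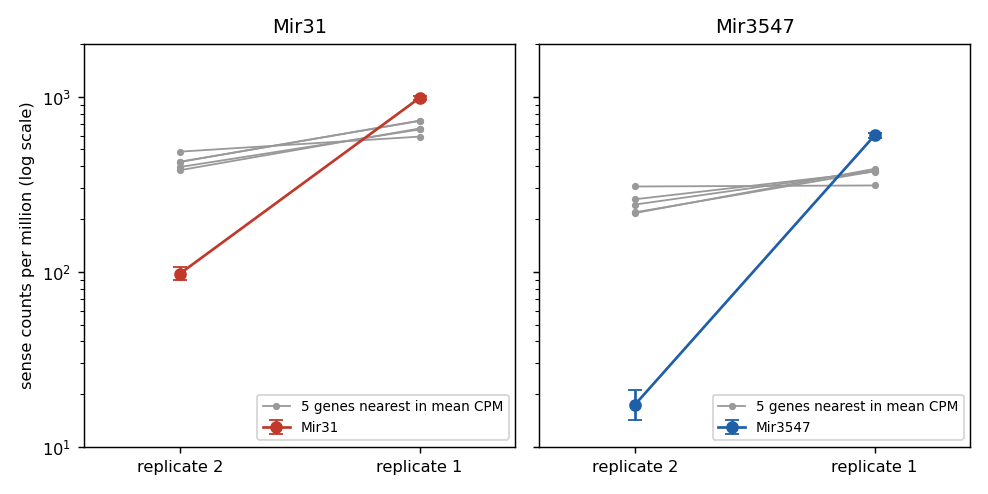
Sense CPM (log axis) of Mir31 and Mir3547 in replicate 2 and replicate 1, with exact 95% Poisson intervals as bars (counting error only). Grey lines are the 5 genes nearest to each in mean CPM. Mir31 stood at 97.6 and 984 CPM and Mir3547 at 17.5 and 601 CPM, and the grey genes differed far less.

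The genes did not keep a fixed proportion to each other. Mir3547 was at 0.179 of the Mir31 level in replicate 2 and at 0.611 of it in replicate 1, both on the CPM scale. Together they held 0.0115% of the sense counts in replicate 2 and 0.158% in replicate 1.

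Most microRNA genes differed little between the libraries. Over the 466 genes averaging at least 10 counts the log2 ratio had a median of 0.02, quartiles of -0.35 and 0.35 and an SD of 0.82. The median was -0.18 when library totals replaced TMM. Of these genes 9 (1.93%) were at least 4-fold lower in replicate 2, and Mir31 and Mir3547 are among them because they were chosen for it. At least 2-fold lower were 33 (7.08%) and at least 2-fold higher 30 (6.44%), and with library totals these counts were 50 (10.7%) and 21 (4.51%). A log2 ratio below 0 under TMM was found for 230 genes (49.4%). The 5 genes nearest to Mir31 in mean CPM, Mir146, Mir134, Mir708, Mir467d and Mir7689, ran from 380 to 486 CPM in replicate 2 and from 592 to 730 CPM in replicate 1. The 5 nearest to Mir3547, Mir339, Mir17, Mir28a, Mir350 and Mir664, ran from 217 to 307 CPM in replicate 2 and from 311 to 387 CPM in replicate 1. In each set Mir31 or Mir3547 lay below all 5 genes in replicate 2 and above all 5 in replicate 1, which equal means and a low ratio together require.

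The rule for the pair set no threshold, so the genes on either side in ratio are given. Among the 328 genes averaging at least 50 counts only Mir217, a microRNA of pancreatic acinar cells, had a lower ratio than Mir3547. Its 2 counts in replicate 2, against 128 in replicate 1, give a log2 ratio of -5.30 (exact counting interval -8.68 to -3.73) that overlaps the interval of Mir3547. Between Mir3547 and Mir31 lay Mir298 of the imprinted Gnas locus, at 261 CPM in replicate 2, against 4836 CPM in replicate 1, with a log2 ratio of -4.01 (interval -4.09 to -3.94). The next 3 above Mir31 were Mir34c, a microRNA of multiciliated cells, at -2.68, Gm23873 at -2.24 and Mir107, in an intron of the pantothenate kinase gene Pank1, at -2.16.

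**Figure D2:**
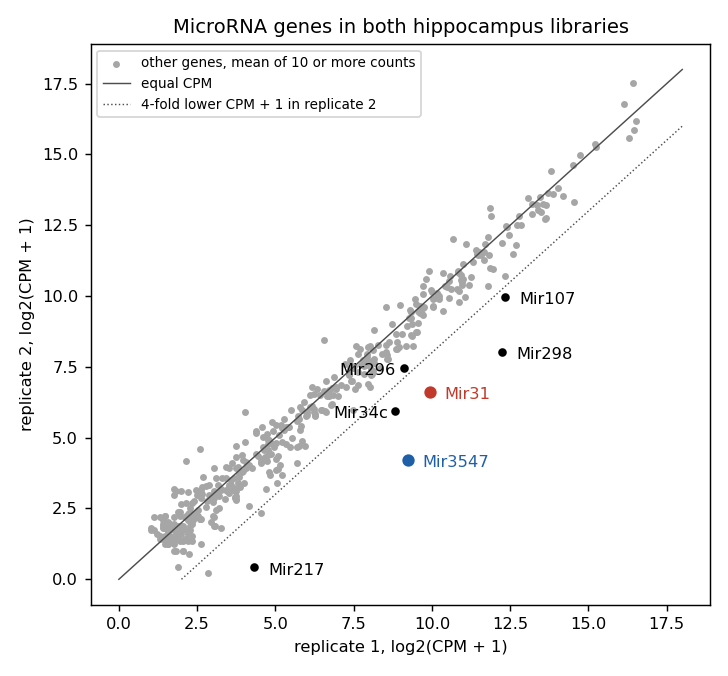
Level of each of the 466 genes averaging at least 10 counts, as log2(CPM + 1), in replicate 2 (vertical) and replicate 1 (horizontal). The solid line marks equal levels and the dotted line a 4-fold lower value in replicate 2. Mir31 (log2 ratio -3.13) and Mir3547 (-4.90) lie below the dotted line. So do the labelled Mir298, Mir217, Mir34c and Mir107, and Gm23873 and Mir216a, which are not labelled.

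By distance in log2(CPM + 1) over the 2 libraries, the gene most like Mir31 was Mir296, at 1.18 log2 units. Mir296, the neighbour of Mir298 at the Gnas locus, had 177 CPM in replicate 2 and 557 CPM in replicate 1. It was followed by Mir34c at 1.31, Mir381 at 1.72, Mir339 at 1.76 and Mir490, in an intron of the muscarinic receptor gene Chrm2, at 1.79. For Mir3547 the nearest was Mir34c, at 1.80 log2 units, with 61.2 CPM in replicate 2 and 451 CPM in replicate 1. Then came Mir335, in an intron of the imprinted gene Mest, at 2.49, Mir31 itself at 2.52, Mir1298, in an intron of the serotonin receptor gene Htr2c, at 2.87 and Mir376b at 2.98. With only 2 points a gene, this likeness is a matter of level and ratio and nothing more. Mir3547 had no gene within 1 unit, and neither had Mir31. Both were chosen for a low ratio, which few genes have, so this is no separate finding.

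The surroundings of each gene were then read for other microRNA genes. None lay within 100 kb of either. The closest to Mir31 was Mir491, 788 kb away in an intron of Focad, with 90.5 CPM in replicate 2 and 115 CPM in replicate 1. Its log2 ratio was -0.14 (exact counting interval -0.30 to 0.02), far above that of Mir31. The closest to Mir3547, Gm25083 at 501 kb, had 0 counts in both libraries, which allows up to 0.508 CPM in replicate 2 and 0.447 CPM in replicate 1. Of the other 21 chromosome 4 genes averaging at least 10 counts none was 4-fold lower in replicate 2 and 1 was 2-fold lower, with a median log2 ratio of 0.15. Of 14 such genes on chromosome 17 none was 2-fold lower, or 1 with library totals, and the median was 0.15. Both medians turned to -0.05 with library totals, as the median over all genes turned to -0.18. Over all 466 genes 1.93% were 4-fold lower and 7.08% 2-fold lower, or 10.7% 2-fold lower with library totals.

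Mir3547 was set beside the other genes whose hairpin fills an annotated intron, a class found after the data were seen. There are 22 of them in the annotation, and 12 averaged at least 10 counts. All of these 12 begin with GU and end with AG, as do 9 (1.98%) of the other 454 genes at that level. Most introns have these ends, so the definition of the class nearly fixes this and it is no separate finding. Over the 12, the first 20 bases held a median of 55% G and the last 20 a median of 67.5% pyrimidine. For Mir3547 these were 65% and 65%, and for Mir31, which fills no intron, 20% and 65%. Over all 466 genes the medians were 35% and 60%. For each of the 6 with the highest mean CPM, the 5p arm at the start of the intron is shown, with the intron's first bases in capitals.
miR-3102-5p: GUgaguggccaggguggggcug
miR-1981-5p: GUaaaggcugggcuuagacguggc
miR-3547-5p: GUgggaagagggguggggcccggga
miR-1224-5p: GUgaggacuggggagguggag
miR-877-5p: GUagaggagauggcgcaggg
miR-7080-5p: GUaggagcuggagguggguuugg
Each of the 6 arms shown holds a run of 3 to 4 G. The share of other 5p arms with such a run was not worked out. Another annotated 5p arm of Mir3102, miR-3102-5p.2-5p, is not shown. It starts with GG, and its longest run of G is 2.

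By mean CPM Mir3547 came after Mir3102 and Mir1981 among these 12 genes, and in replicate 1 only Mir3102 stood above it. In replicate 2 it had 17.5 CPM, between Mir6944 at 37.6 CPM and Mir1982 at 14.2 CPM. Its place by mean therefore rests on replicate 1. Mir3102, in Arhgef17, had 753 CPM in replicate 2 and 809 CPM in replicate 1. Mir1981, in Marc2, had 328 and 472 CPM, and Mir1224, in Vwa5b2, had 303 and 261 CPM. Mir877, in the chromosome 17 gene Abcf1, had 232 and 244 CPM. Leaving out Mir3547, the log2 ratios of the other 11 ran from -0.87 to 1.00 with a median of 0.12, or -0.08 with library totals, and 4 were below 0. None of the 11 was at least 2-fold lower in replicate 2, or 1 with library totals, and 1, Mir7070 in Fbxw9 with 5.25 CPM in replicate 2 and 2.98 CPM in replicate 1, was at least 2-fold higher, or none with library totals. Over all 466 genes 49.4% were below 0. At least 2-fold lower were 7.08% and higher 6.44%, or 10.7% and 4.51% with library totals. The 11 genes summed to 1874 CPM in replicate 2, against 2109 CPM in replicate 1. Because Mir3547 was chosen for its ratio, its gap to them is given without a test.

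**Figure D3:**
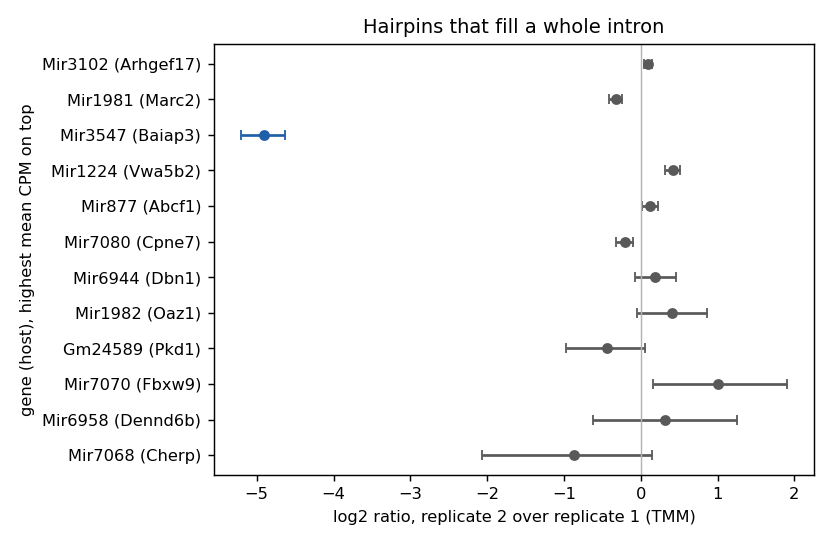
Log2 ratio of replicate 2 over replicate 1 (TMM) for the 12 intron-filling genes averaging at least 10 counts, host gene in brackets, with exact 95% counting intervals. Mir3547 lies at -4.90 and the other 11 between -0.87 and 1.00.

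The base composition and fold of both hairpins lay inside the range of the other genes. The Mir31 hairpin was 50% GC and that of Mir3547 59.1%, against a median of 52.8% and a range of 28.4 to 91.6% over the 466 genes. The fold energy was -0.46 kcal/mol per base for Mir31 and -0.47 for Mir3547, against a median of -0.43. Both values lie between the quartiles of all genes, -0.49 and -0.38.

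Marker lists show what else differed between the libraries. The epithelium and skin list, the kind of tissue Mir31 is best known from, summed to 798 CPM in replicate 2 against 464 CPM in replicate 1. Most of that gap was Mir200b, at 350 CPM in replicate 2 and 92.3 CPM in replicate 1. Of its 9 genes averaging at least 10 counts none was 2-fold lower in replicate 2, or 1 with library totals. Mir200a, Mir200b and Mir141 were 2-fold higher, and the list median was 0.63. Over all 466 genes 7.08% were 2-fold lower and 6.44% higher, or 10.7% and 4.51% with library totals. Mir205, a microRNA of squamous epithelium, had 36 counts in replicate 2 and 84 in replicate 1, Mir203, of skin, had 102 and 170, and Mir200c had 330 and 510. These 3 of the 9 genes had log2 ratios below 0, at -0.83, -0.35 and -0.24, against 49.4% of all 466 genes. The part of this list in the result was not tested.

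The neuroendocrine and hypothalamus list, chosen beside Baiap3, was lower in replicate 2. It summed to 1425 CPM in replicate 2 and 2858 CPM in replicate 1. All 5 genes had negative log2 ratios, from -1.33 to -0.54 with a median of -0.86, and 1 of the 5, Mir335, was 2-fold lower, or 3 with library totals. Over all 466 genes 49.4% were below 0, and 7.08% were 2-fold lower, or 10.7% with library totals. Mir7b, a microRNA enriched in hypothalamus and pituitary, had 893 CPM in replicate 2 and 1865 CPM in replicate 1. Mir375, of endocrine cells, had 297 and 496 CPM. Each of the 5 ratios is smaller in size than that of Mir31 or Mir3547, and the part of this list in the result was not tested.

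The pancreas acinar list was at or near 0 in replicate 2. Mir216a, Mir216b and Mir217 had 1, 0 and 2 counts in replicate 2, against 42, 12 and 128 counts in replicate 1. The log2 ratios were -4.44 for Mir216a and -5.30 for Mir217. As point values both exceed that of Mir31 in size, and that of Mir217 exceeds that of Mir3547. With 1 and 2 counts in replicate 2 they are imprecise. The exact counting interval of Mir217, -8.68 to -3.73, overlaps that of Mir3547, and none is given for Mir216a. Both genes averaged at least 10 counts through replicate 1 only. The list summed to 0.508 CPM in replicate 2 and 27.1 CPM in replicate 1. At the Gnas locus Mir298 and Mir296 together had 438 CPM in replicate 2 and 5393 CPM in replicate 1. The part of either list in the result was not tested.

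Summed levels of glia, vessel and blood lists differed by less than those of Mir31 and Mir3547 in fold. The oligodendrocyte list had 3193 CPM in replicate 2 and 7078 CPM in replicate 1, mostly from Mir219a-2. Its log2 ratios were -1.42 for Mir219a-2, -0.16 for Mir338 and -0.01 for Mir219a-1, with a median of -0.16. The lower sum thus came mainly from Mir219a-2. Endothelial Mir126a had 2897 and 6191 CPM, and Mir126b had 0 counts in both libraries. The mural and meningeal list had 1514 and 2513 CPM, most of it Mir143 at 1327 and 2314 CPM. Mir214, at 9.49 and 32.5 CPM, was lower in replicate 2 as well, and Mir145a, at 177 and 165 CPM, was not. Mir199a-1 was at 0 in both libraries and Mir199a-2 at 0 and 3 counts. The erythrocyte list had 32.7 and 73.1 CPM. Both of its genes averaging at least 10 counts were below 0 in log2 ratio, against 49.4% of the 466 genes. The microglia and leukocyte list had 2246 CPM in replicate 2 and 2028 CPM in replicate 1, a sum carried by Mir150 at 1815 and 1303 CPM. Of its 6 genes 4 had negative log2 ratios, against 49.4% of the 466 genes. They are Mir223 at -1.34, on 6 and 21 counts, Mir142 at -0.69, Mir146 at -0.59 and Mir155 at -0.32. Mir150 at 0.68 and Mir146b at 1.53, on 45 and 20 counts, went the other way. The list median was -0.46, opposite in direction to the sum. The choroid plexus and ciliated ependyma list summed to 1747 CPM in replicate 2 and 2056 CPM in replicate 1, most of it Mir204 of choroid plexus at 1653 and 1532 CPM. The microRNAs of ciliated cells were lower in replicate 2: Mir34c had 61.2 and 451 CPM, Mir449a 13.9 and 32.6 CPM and Mir34b 15.6 and 34.7 CPM, while Mir449b and Mir449c were at 0 in both libraries. Of the list's 5 genes averaging at least 10 counts, 4 had negative log2 ratios, with a median of -0.95. At least 2-fold lower were 2, or 3 with library totals, and at least 4-fold lower was 1. Over all 466 genes 49.4% were below 0, 7.08% were 2-fold lower, or 10.7% with library totals, and 1.93% were 4-fold lower. In bulk tissue fewer cells of a type and less RNA per cell cannot be told apart, and the part of these lists in the levels of Mir31 and Mir3547 was not tested.

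**Figure D4:**
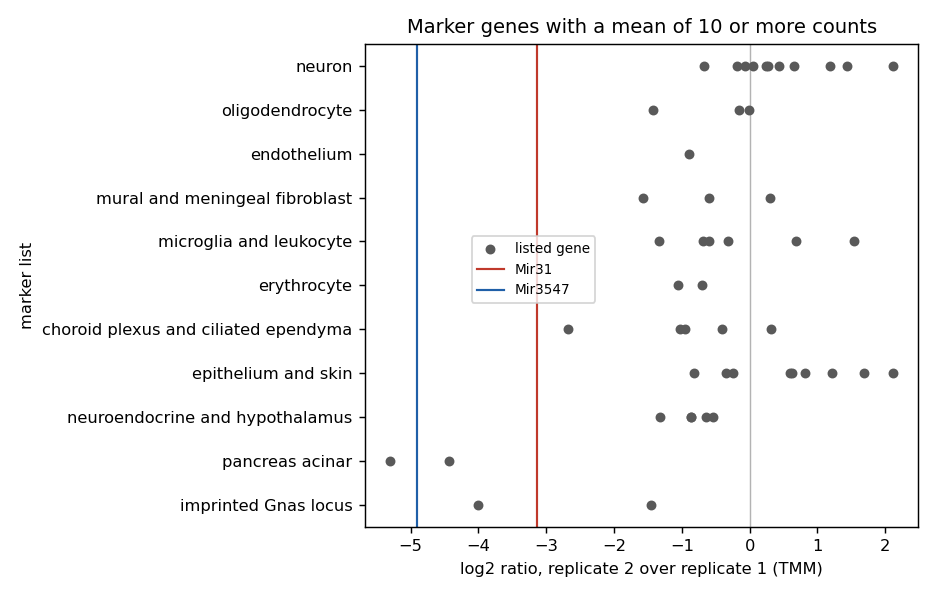
Log2 ratio of replicate 2 over replicate 1 (TMM) of each listed gene averaging at least 10 counts, by marker list. Vertical lines mark Mir31 (-3.13) and Mir3547 (-4.90). Genes of the pancreas acinar and Gnas lists reach past the Mir31 line, and the neuron and epithelium lists hold genes on both sides of 0.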

How the data were processed

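MicroRNA reads were counted per gene in 2 libraries, 1 per biological replicate. The authors deposited raw read counts for the mm10 assembly and GENCODE M21, per the notes that accompany each library. Neither aligner nor counting tool is named in the labels or notes: not given in the sources used here. The unlabelled columns were read from their values as counts without strand, sense and antisense, and sense counts were used. All 2202 identifiers matched M21 genes. The 4 classes of reads given to no gene stayed out of library sizes.

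CPM is each gene's sense count scaled to a common library total of sense counts on microRNA genes. Log2 ratios of replicate 2 over replicate 1 had 0.5 counts added and were scaled by the trimmed mean of M values (TMM, edgeR 4.0.16) over the 466 genes averaging at least 10 counts. Intervals are exact at the 95% level for independent counts and cover counting error only. Reads without molecular identifiers are not independent molecules, so the intervals may be too narrow even for that. Each side of the ratio is 1 library, so no test was run; past 4-fold or 2-fold stands for a call. Ratios and intervals were checked on simulated Poisson counts with known library sizes. That checks the calculation only, since such counts hold no spread beyond counting error. Longest stretches shared between M21 hairpins were searched from 12 bases upward on both strands, and hairpins were folded with ViennaRNA 2.7.2. Mature sequences are from RefSeq (GRCm38.p6), which held both genes.

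Besides both genes, genes were named by fixed rules: the 5 nearest in log2(CPM + 1) over both libraries, those at or below Mir31 in ratio averaging at least 50 counts and the next 3, the closest microRNA gene, genes with the same seed, and marker lists. The members, rules and lists were chosen with earlier results of these data known. Hairpins that fill an intron were grouped after the data were seen. Alternatives were other scalings (with DESeq2 1.42.0 size factors), filters, pseudocounts, count columns and each library alone.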

Additional observations from a re-analysis of the deposited data

How the results depend on the processing

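Mir31 and Mir3547 stayed lower in replicate 2 under each alternative run. For Mir31 the log2 ratio went beyond its counting interval with library totals (-3.33) and with all reads as the scale (-3.37), and for Mir3547 it ran from -5.14 to -4.84 within its interval. Mean levels with a library left out ran from 97.6 to 984 CPM for Mir31 and from 17.5 to 601 CPM for Mir3547, so each mean rests on replicate 1. Per all reads of the library the mean levels were 229 and 131, against 541 and 309 CPM, because that denominator also holds reads given to no gene. Genes at least 4-fold lower in replicate 2 numbered 9 of 466, and 27 of 787 with no filter on low counts. The other 6 settings gave 7 to 10. With 103 counts, depth limits Mir3547 in replicate 2 most. No paired analysis was possible because the labels give a single group.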
